A study of Salmo salar with 40 samples.

Results

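Livers of Atlantic salmon that had received 5 mg of lufenuron per kg were set against livers of salmon that had received none, all collected at day 14, which was 7 days after dosing had stopped. The comparison holds 10 exposed and 10 control fish, 20 of the 40 fish of the series, and these were taken by the labels of sampling day and agent. The other 20 fish, 10 exposed and 10 control, were collected at day 8, 1 day after dosing had stopped, and they are used here to share an estimate of the spread and to follow the genes that had moved by then. Each library is the liver of 1 fish, and no fish was sampled on both days. The fish carried no engineered allele according to the labels, and their strain, sex, tank and feed were not in the labels. The p-values of genes rest on a spread estimated over all 40 fish, not over these 20 alone. A tank difference cannot be told apart from exposure.

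Lufenuron is a benzoylurea, a class of compounds that stop arthropods from laying down chitin in a new cuticle, and it is given in feed against sea lice. It dissolves in fat and leaves the body slowly. The liver takes up such compounds, and its hepatocytes also make most proteins of blood plasma: albumin and transferrin as carriers, apolipoproteins, clotting factors, complement and the acute phase proteins whose output follows inflammation. A hepatocyte therefore spends much of its messenger RNA on secreted proteins, on the ribosomes that translate them and on the endoplasmic reticulum that folds them. The series asks whether exposure lowers liver gene expression, including the pathway that attaches the modifier SUMO to its substrates, and whether that passes. The day 14 fish bear on the last point.

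The day 14 libraries held 51.2 M to 70.2 M assigned reads in exposed fish and 49.9 M to 66.1 M in controls, so that 1 CPM, a count scaled by library size, is at least 42.7 reads. Albumin and apolipoprotein A-I, which mark hepatocytes, were high in both groups: alb1 averaged 17340 ± 5474 CPM in exposed fish and 19400 ± 8918 CPM in controls (SD, n = 10 each). The 50 most abundant genes took 40.3% ± 1.76 of the reads in exposed fish and 43.2% ± 2.58 in controls, and each of the 10 exposed fish was below the control median (two-sided permutation test, p = 0.0105, adjusted over 3 library measures chosen after the data were seen 0.0158). With this, the TMM factor, which corrects a library for its composition, was 1.09 ± 0.105 in exposed fish and 0.962 ± 0.0746 in controls (permutation p = 0.00568, adjusted 0.0158). The scale therefore matters: with TMM the median gene lay at 0.0042 on the log2 scale, and with total reads alone it lay at 0.19, so changes under total reads are read against that shift. Exposed fish weighed 35 to 66 g and controls 17 to 67 g, and control fish 6, 7 and 10 weighed under 20 g. The recorded weights of control fish 7 (18 g at 16.5 cm) and control fish 10 (17 g at 15.4 cm) look low for their lengths.

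No gene passed an adjusted p of 0.05 at day 14 among 30397 tested (0%; edgeR's quasi-likelihood test with Benjamini-Hochberg adjustment, smallest adjusted p = 0.117). An unadjusted p under 0.05 was reached by 2437 genes (8.02%), of which 1080 were higher (3.55%) and 1357 lower (4.46%) in exposed fish. DESeq2 passed 20 of the 1520 genes for which it gave an adjusted p (1.32%), 19 of them lower and 1 higher in exposed fish. The other tested genes had no adjusted p there and could not be called. Among these were LOC106566364 and LOC100194692, higher in exposed fish, and LOC106612162, lower, all named below. The split by direction therefore covers the 1520 genes only, and DESeq2's filter on mean count keeps the more abundant genes. Abundant genes as a whole leaned lower in edgeR. At abundance ranks 201 to 1000, 121 genes were lower and 16 higher at an unadjusted p under 0.05. Under total reads as the scale 5118 genes were higher (16.8%) and 231 lower (0.760%) at an unadjusted p under 0.05, so the share of lower genes among them was 4.3%, against 55.7% with TMM. Values below are therefore given with their spread and unadjusted p, and "lower" or "higher" names the sign of the estimate, the exposed mean minus the control mean on the log2 scale.

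Across the transcriptome the sign followed abundance: the genes with the most reads were lower in exposed livers and the rarest were higher. Of the 50 most abundant genes 43 were negative, with a median log2 difference of -0.25, 22 of them at p under 0.05 (44%) and 0 higher at that threshold. The median was -0.20 for ranks 51 to 200, -0.10 for ranks 201 to 1000, -0.04 for ranks 1001 to 5000, -0.01 for ranks 5001 to 15000 and 0.06 beyond. Ranks are by mean CPM, which also rises with transcript length. Under total reads the same order ran between -0.06 for the 50 most abundant genes and 0.25 for the rarest. In fish of 35 to 52 g, 7 exposed and 6 control, the 50 most abundant genes had a median of -0.14. The exposed fish of that subset weighed 35 to 43 g and the controls 42 to 52 g, so the groups were not matched for weight.

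**Figure D1:**
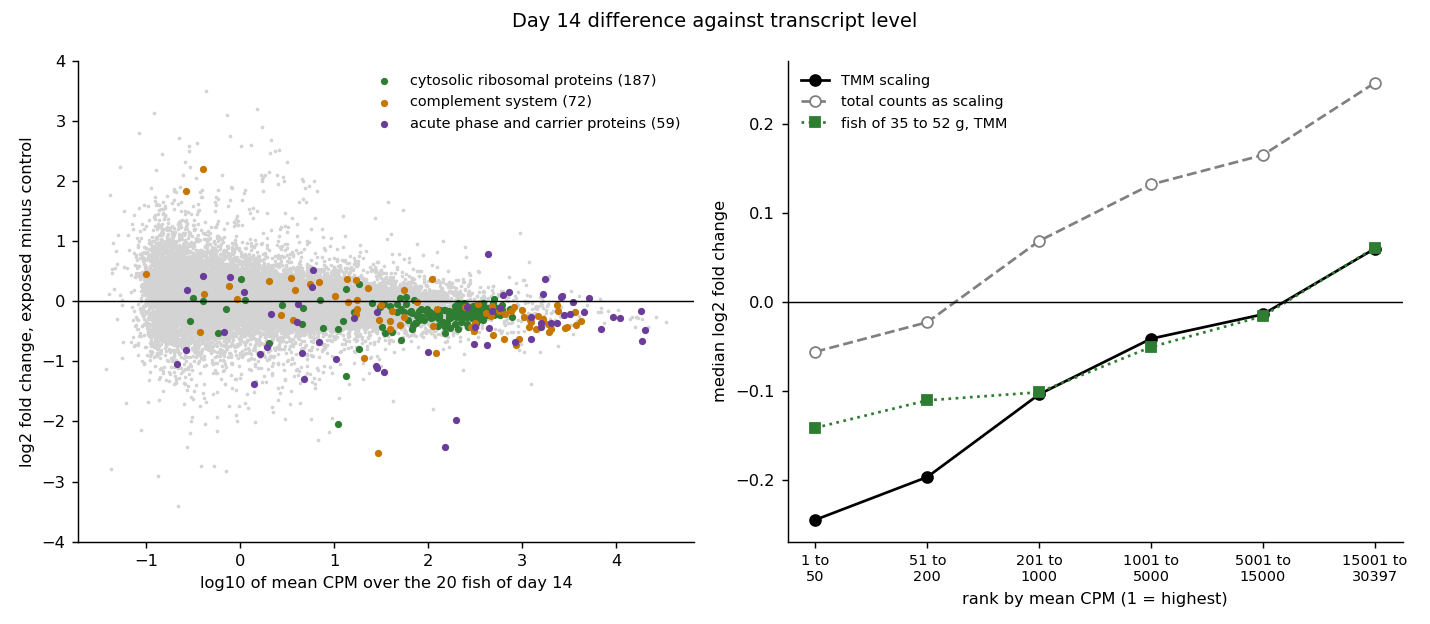
Log2 difference (exposed minus control at day 14) of each tested gene against the log10 of its mean CPM, with ribosomal protein, complement and acute phase genes coloured, and beside it the median by abundance rank under TMM, total reads and fish of 35 to 52 g. With TMM the median climbs between -0.25 for the 50 most abundant genes and 0.06 for the rarest.

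The most abundant genes are the plasma proteins themselves. Transferrin, the iron carrier (trf), had 19500, 23560 and 28080 CPM as the lowest, median and highest exposed fish, against 20710, 29780 and 37330 CPM in controls. Every exposed fish lay below the control median, though the groups overlapped, and the difference was -0.26 ± 0.12 (SE, p = 0.0341). Apolipoprotein A-I, the main protein of high-density lipoprotein, has a pair of genes among the 50 most abundant. A less abundant tested entry, the apolipoprotein A-I-like LOC106577499, averaged 107 CPM in exposed fish and 110 CPM in controls. LOC100136573 averaged 29680 ± 5279 CPM in exposed fish and 37450 ± 3356 CPM in controls (SD, n = 10 each; -0.34 ± 0.10, p = 0.0013, DESeq2 adjusted p = 0.0395), and apoa1 was at -0.42 ± 0.20 (p = 0.0466). The fibrinogen chains, which polymerise into the clot, stood close together, at -0.26 for alpha (LOC106578169), -0.27 for beta (LOC106578170) and -0.27 for gamma (LOC106602564), with p of 0.0283, 0.0123 and 0.0402. Serum albumin 1 (alb1) was at -0.16 (p = 0.469), where the spread between fish was wider than the difference, and it turned to 0.20 in fish of 35 to 52 g and to 0.03 under total reads. Other abundant secreted proteins were higher without reaching p under 0.05, such as selenoprotein P (sepp1), a selenium carrier, at 0.09 and LOC106571178, an apolipoprotein B-100-like gene, at 0.05. In bulk liver, fewer cells of a type and less RNA per cell cannot be told apart.

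Acute phase and carrier proteins were lower in exposed fish at a median of -0.34. Of 59 members tested, 17 were lower (28.8%, against 4.46% of all genes) and 1 higher at p under 0.05, and 45 were negative. Several members are abundant, and the share of lower genes rose with abundance. Among all genes it was 44% at ranks 1 to 50, 30.7% at ranks 51 to 200 and 15.1% at ranks 201 to 1000. No share at matched abundance was counted for this list or for the other lists of plasma proteins. The members' summed level was 87540, 108300 and 143800 CPM as the lowest, median and highest exposed fish, against 109400, 148100 and 211200 CPM in controls, and each of the 10 exposed fish was below the control median. The alpha-1-antitrypsin homolog LOC106608112, an inhibitor of neutrophil elastase in mammals, had 11230, 16190 and 23130 CPM in exposed fish against 16690, 23760 and 32840 CPM in controls. Each of the 10 exposed fish was below the control median (-0.47 ± 0.15, p = 0.00247). Hemopexin-like LOC106586883, the haem scavenger, had 6299, 12750 and 23590 CPM in exposed fish and 15650, 22260 and 32680 CPM in controls, with 8 exposed fish below the control median (-0.67 ± 0.24, p = 0.00853). LOC106599648, an alpha-2-macroglobulin-like protease trap, was at -1.11 ± 0.37 (p = 0.00431), and at -0.74 without control fish 7. Another alpha-2-macroglobulin-like gene, LOC106612536, averaged 2987 CPM in exposed fish and 3473 CPM in controls (-0.22 ± 0.13, p = 0.105). That gene was at -0.08 without control fish 7 and at 0.08 in fish of 35 to 52 g. The counts changed with the fish that were kept, and the part of body weight in this was not tested. Without the 3 light controls 10 members were lower and the median was -0.22. In fish of 35 to 52 g, a smaller set, 0 were lower and the median was -0.16. With body weight as a covariate 15 were lower and 0 higher, the median was -0.25, and LOC106608112 stood at -0.46 (p = 0.00445) and LOC106586883 at -0.67 (p = 0.0103). Under total reads 5 were lower and 8 higher, and the median was -0.12 against 0.19 for all genes.

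Complement genes encode a plasma cascade that tags and lyses microbes, and its fluid-phase regulators were among the clearest lower genes. Of 72 members tested, 26 were lower (36.1%, against 4.46% of all genes, not matched for abundance) and 2 higher at p under 0.05. The median was -0.21. Complement factor I-like LOC106592311, the protease that inactivates C3b, had 360.9, 753 and 1096 CPM in exposed fish against 765.1, 1073 and 1964 CPM in controls. In 9 of 10 exposed fish it lay below the control median (-0.63 ± 0.17, p = 0.00053, DESeq2 adjusted p = 0.0389). Factor H-like LOC106560550, the cofactor of factor I, averaged 2437 ± 304 CPM in exposed fish and 3318 ± 688 CPM in controls (-0.45 ± 0.12, p = 0.000836, DESeq2 adjusted p = 0.0395). Properdin-like LOC106572045, which in contrast stabilises the convertase of the alternative pathway, averaged 394 ± 76.8 CPM in exposed fish and 582 ± 118 CPM in controls (-0.56 ± 0.15, p = 0.0006, DESeq2 adjusted p = 0.0389). The other copy of factor I, cfi, was at -0.51 (p = 0.00452). The difference in cfhr5 (-2.53, p = 0.000982) rested on 1 control fish with 394.5 CPM: without control fish 8 it was -0.42. The count of lower members was 14 without control fish 7, 13 without the 3 light controls and 8 in fish of 35 to 52 g, where the median was -0.10; under total reads 9 were lower, 9 higher and the median was -0.03.

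Coagulation factors gave a smaller shift of the same sign. Of 50 members, 16 were lower (32%, against 4.46% of all genes, not matched for abundance) and 1 higher at p under 0.05. The median was -0.16. Prothrombin-like LOC106587117, the precursor of thrombin, had 770.7, 864.2 and 1070 CPM in exposed fish against 888.5, 1069 and 1473 CPM in controls (-0.30 ± 0.10, p = 0.00314). Another prothrombin-like gene, LOC106561958, is among the 50 most abundant genes. It averaged 6480 CPM in exposed fish and 7347 CPM in controls (-0.18 ± 0.10, p = 0.0793), and was at -0.10 without control fish 7. Both kininogen-1-like genes, whose product feeds the contact pathway and releases bradykinin in mammals, were lower, LOC106613935 at -0.40 ± 0.12 (p = 0.00213) and LOC106584303 at -0.31 ± 0.11 (p = 0.00587), the last with each exposed fish below the control median. The protein Z-dependent protease inhibitor LOC106611008, a brake on factor Xa, averaged 296 ± 33.5 CPM in exposed fish and 366 ± 60.95 CPM in controls (-0.31 ± 0.09, p = 0.000865, DESeq2 adjusted p = 0.0389). Under total reads 1 member was lower and 5 higher and the list's median was 0.02, where all genes stood at 0.19, and 9 members were lower without control fish 1 and 6 in fish of 35 to 52 g.

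Some of the smallest p-values belonged to the list of secreted immune recognition proteins, whose members were taken by symbol or name. CD5 antigen-like LOC106570622, a scavenger receptor protein that macrophages secrete in mammals, had 353.6, 611.7 and 1314 CPM in exposed fish against 623.9, 1718 and 4723 CPM in controls. Each of the 10 exposed fish was below the control median, and the ranges overlapped (-1.37 ± 0.32, p = 0.000116, DESeq2 adjusted p = 0.0104). Its copy LOC106594044 was at -1.47 (p = 0.0192), but at a very low level, with 0.145 CPM on average in exposed fish and 0.403 CPM in controls. Complement C1q-like protein 3 (LOC106579598), a member of the C1q and TNF superfamily, had 246.1, 809.1 and 1091 CPM in exposed fish against 814.9, 1178 and 2455 CPM in controls (-0.84 ± 0.20, p = 0.000127, DESeq2 adjusted p = 0.0173). In the list as a whole, 5 of 64 members were lower (7.81%, against 4.46% of all genes) and 0 higher, with a median of -0.21 that became 0.01 under total reads and -0.08 without the 3 light controls. Of the DESeq2 calls outside the lists, leucine-rich alpha-2-glycoprotein-like LOC106571174, an acute phase protein in mammals, had 80.98, 124.6 and 279.7 CPM in exposed fish against 112.7, 287.3 and 674.3 CPM in controls (-1.14 ± 0.29, p = 0.000341). Its copy LOC106571173 was at -0.06 (p = 0.627), with 421.5 CPM on average in exposed fish and 439.2 CPM in controls. Interleukin-27 subunit beta-like LOC106574502, a secreted cytokine subunit, was at -0.66 ± 0.17 (p = 0.000265), and zinc-binding protein A33-like LOC106569442 at -0.84 ± 0.25 (p = 0.00178). Over the 5 lists of plasma and hepatocyte genes together, which overlap in a few genes, 67 of 261 genes were lower (25.7%) and 4 higher. Among all genes 4.46% were lower, a share that is not matched for the abundance of these lists.

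**Figure D2:**
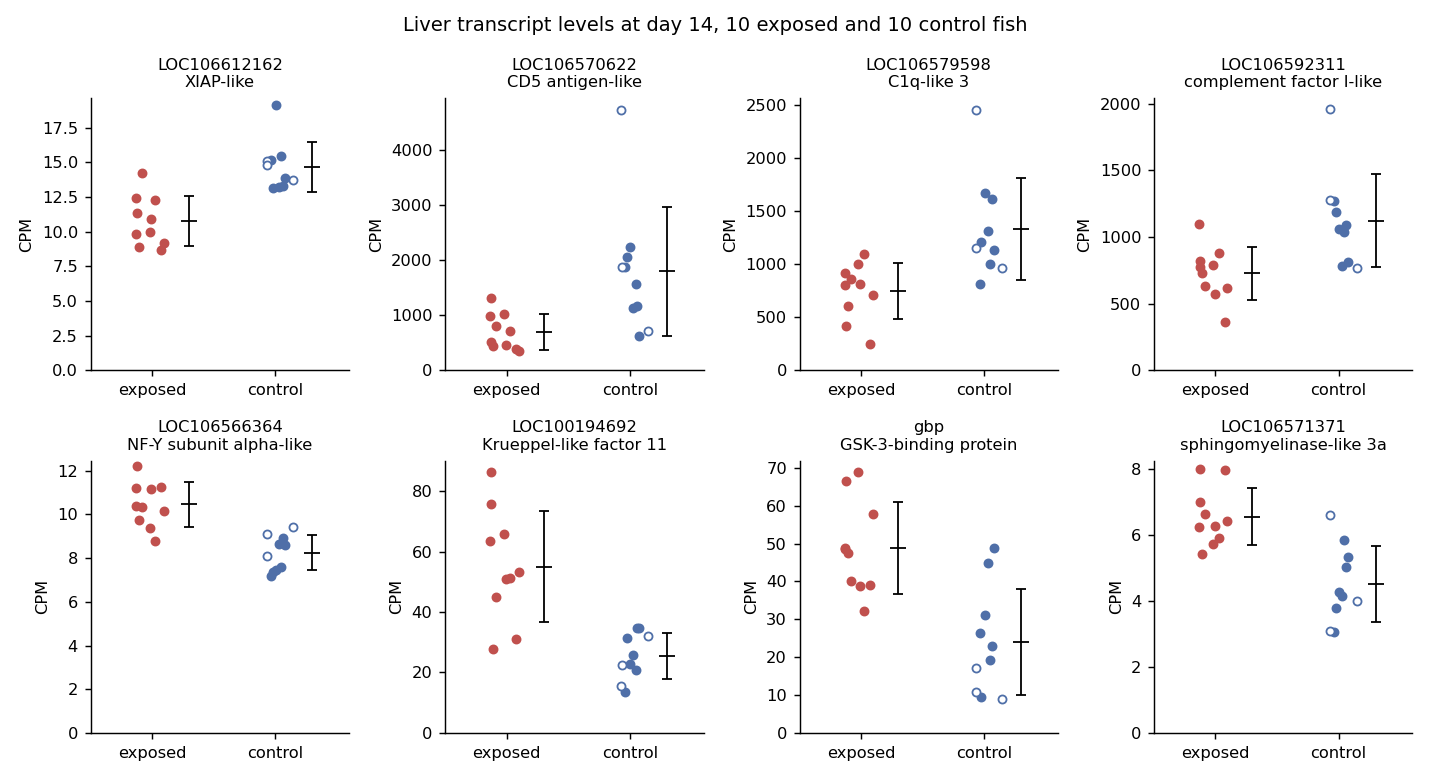
Level in CPM of 8 genes in each fish at day 14, exposed fish left of control fish, with bars for the mean ± SD (n = 10 each) and open points for the 3 control fish under 20 g. The 4 genes of the upper row are lower and those of the lower row higher in exposed fish, and the groups overlap in each panel.

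Genes for proteins of the cytosolic ribosome gave an even shift. Of 187 members tested, 176 were negative, 69 were lower at p under 0.05 (36.9%, against 4.46% of all genes) and 0 higher, and the median was -0.19. The summed level was 31420, 37150 and 46720 CPM as the lowest, median and highest exposed fish, against 38130, 42000 and 49740 CPM in controls. At 10 CPM or more, 67 of 174 ribosomal protein genes were lower (38.5%), against 8.11% of the 7694 genes tested at that level, with medians of -0.19 and -0.04. Among all genes 15.1% were lower at ranks 201 to 1000 and 30.7% at ranks 51 to 200. Ribosomal protein L39 (rl39), at the exit tunnel of the large subunit, had 164.6, 216.4 and 290.9 CPM in exposed fish against 255.5, 292.9 and 372.2 CPM in controls, and each of the 10 exposed fish was below the control median (-0.42 ± 0.12, p = 0.00123, DESeq2 adjusted p = 0.0399). L29-like LOC106583787 averaged 124 ± 32.4 CPM in exposed fish and 177 ± 32.02 CPM in controls (-0.52 ± 0.15, p = 0.000993), and L22-like 1 (rl22l), a paralogue of L22, 226 ± 50.2 CPM and 293 ± 39.5 CPM (-0.38 ± 0.11, p = 0.00111). One member, LOC106592568 (L27), was at -2.04 through control fish 3 alone, which had 133 CPM where the other 9 had 3.686 to 5.784 CPM, and it was at -0.16 without that fish. No source used here says how reads were split between near-identical copies of these genes, so single members are uncertain.

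The ribosomal protein shift was as large in fish of 35 to 52 g, whose groups were not matched for weight: 63 members were lower with a median of -0.22. Without the 3 light controls 72 were lower. The shift depended on single fish and on the scale. Without control fish 2 there were 38 lower members, without exposed fish 8 there were 99, and under total reads 11 were lower and 4 higher, with a median of -0.02 against 0.19 for all genes. At day 8 the same list had a median of -0.00, with 0 members that fell and 1 that rose. Ribosome biogenesis genes build the particle in the nucleolus. At day 8, 24 of 54 fell and their median was -0.63, while at day 14 0 of 54 reached p under 0.05 in either direction and the median was 0.06 (-0.01 in fish of 35 to 52 g).

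**Figure D3:**
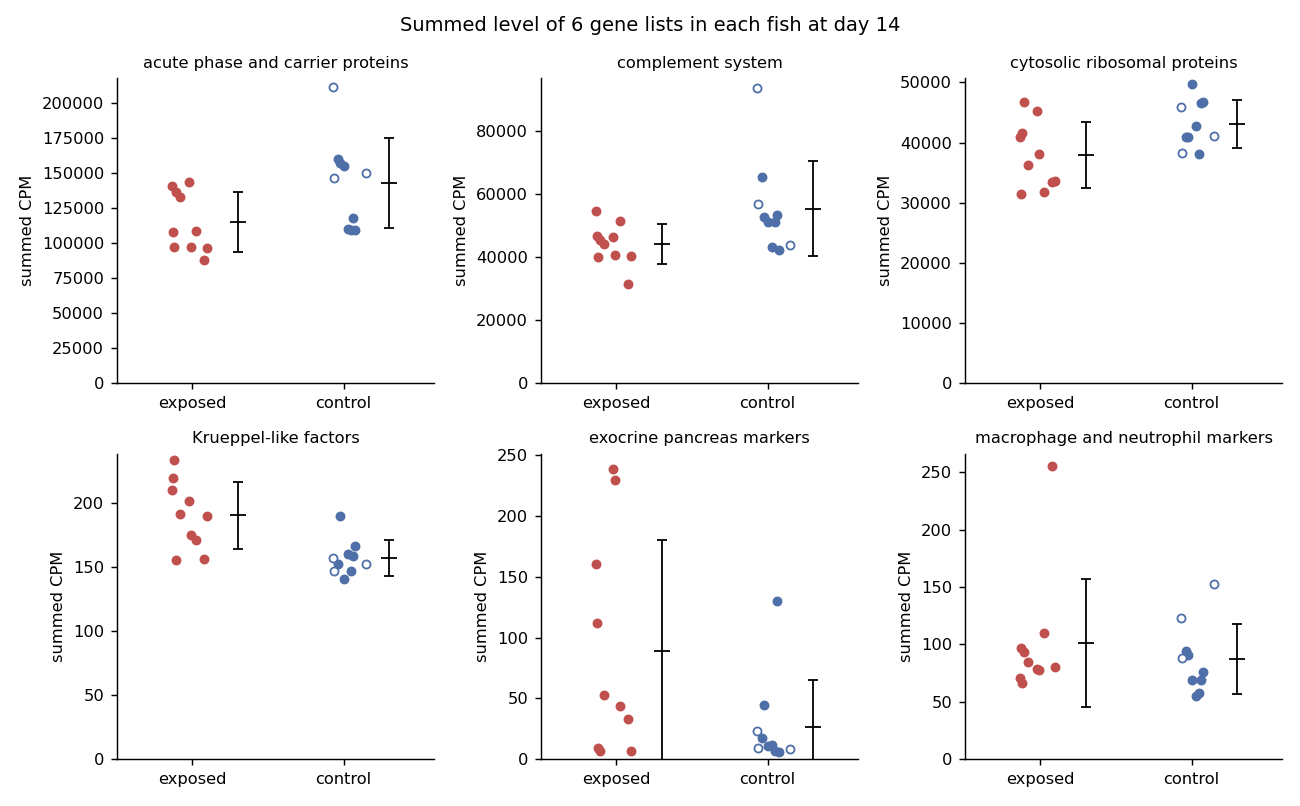
Summed CPM of 6 gene lists in each day 14 fish, exposed left of control, with the mean ± SD (n = 10 each, bars stopped at 0) and open points for the 3 control fish under 20 g. All 10 exposed fish lie below the control median for acute phase proteins and above it for Krueppel-like factors, whose sum includes LOC100194692, while pancreas markers spread between 6.19 and 238.6 CPM in exposed fish and between 6.10 and 130.1 CPM in controls.

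Cholesterol synthesis is switched on by the transcription factor SREBP2 when sterols are scarce, and INSIG1 holds that factor back in the endoplasmic reticulum. Of 25 members, 24 were negative and the median was -0.34. At p under 0.05, 8 were lower (32%, against 4.46% of all genes, not matched for abundance) and 0 higher. The insulin-induced gene 1-like LOC106578605 had 11.33, 13.9 and 17.7 CPM in exposed fish against 11.64, 22.08 and 28.46 CPM in controls, with each exposed fish below the control median (-0.56 ± 0.16, p = 0.00137). Its counterpart insig1 was at -0.50 ± 0.16 (p = 0.00433) and mevalonate kinase-like LOC106585666, an early enzyme of the pathway, at -0.60 ± 0.22 (p = 0.0102). The median was -0.38 without the 3 light controls and -0.20 in fish of 35 to 52 g, where 2 members were lower. Under total reads it was -0.17, with 1 member lower and 1 higher. Fatty acid and triglyceride synthesis had a median of 0.00, with 6 lower (9.52%, against 4.46% of all genes) and 1 higher of 63 members. Among the lower were srebf1_1, a gene for the lipogenic factor SREBP1, at -0.58 ± 0.20 (p = 0.0047) and elov1, an elongase of very long chain fatty acids, at -0.30 ± 0.11 (p = 0.00706). For each of these genes every exposed fish was below the control median.

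Folding and secretion genes of the endoplasmic reticulum were negative in 62 of 70 members, with a median of -0.31. At p under 0.05, however, 10 were lower (14.3%, against 4.46% of all genes, not matched for abundance) and 1 higher. The summed level was 5312, 7080 and 17550 CPM in exposed fish against 5746, 10100 and 18070 CPM in controls, a spread in each group much wider than the difference. The sensor kinase PERK (eif2ak3), which slows translation when unfolded protein builds up, had 3.322, 5.149 and 6.878 CPM in exposed fish against 4.591, 6.574 and 14.47 CPM in controls (-0.47 ± 0.17, p = 0.00689). The signal peptidase subunit LOC106562465 was at -0.48 ± 0.19 (p = 0.016). The count of lower members was 3 without control fish 2 and 20 without exposed fish 8, and under total reads 1 was lower and 2 higher with a median of -0.16. Proteasome subunits were negative in 74 of 89 members at a median of -0.13, and the median was 0.04 under total reads. Of these subunits 6 were lower (6.74%, against 4.46% of all genes) and 0 higher. Without control fish 2, 0 of them were lower, and without the 3 light controls 17 were.

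**Figure D4:**
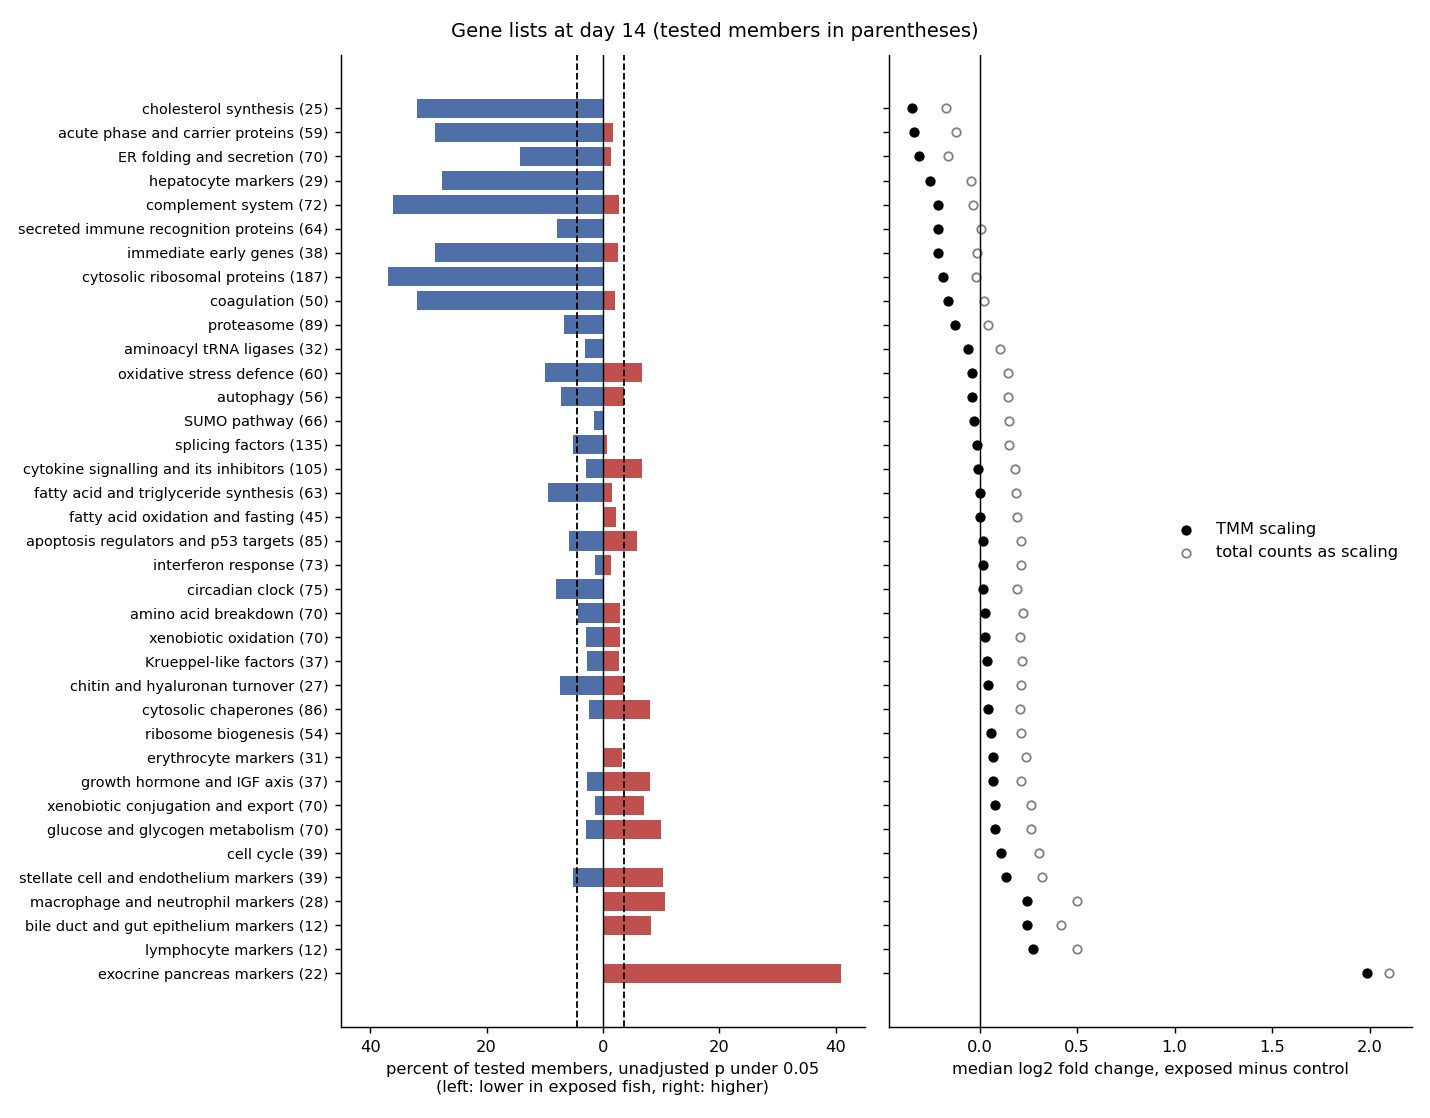
For each gene list, the percent of tested members lower (to the left) and higher (to the right) in exposed fish at p under 0.05, with dashed lines at 4.46% and 3.55% of all genes, and the median log2 difference under TMM (filled) and total reads (open). Complement, ribosomal protein, cholesterol, coagulation, acute phase, immediate early and hepatocyte lists reach 27.6% to 36.9% lower, and exocrine pancreas markers 40.9% higher.

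Immediate early genes are those that cells switch on within minutes of a stimulus or of handling. They were lower in 11 of 38 members (28.9%, against 4.46% of all genes) and higher in 1 (2.63%, against 3.55%). The zinc finger factor egr1 had 0.7159, 1.644 and 2.474 CPM in exposed fish against 0.8495, 2.388 and 13.1 CPM in controls (-1.42 ± 0.40, p = 0.00101). The AP-1 subunit fosl2 was at -1.36 ± 0.47 (p = 0.00681) and ier2 at -0.80 ± 0.28 (p = 0.0074). Control fish 8 was high in this group: without it 6 members were lower, egr1 was at -1.02, fosl2 at -1.16 and ier2 at -0.62. The list's median was -0.21, and -0.01 under total reads. Handling and order of sampling are not in the labels, and their part in this result was not tested.

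Among the genes with the smallest p on the higher side, Krueppel-like factor 11 (LOC100194692), a zinc finger repressor that responds to TGF-beta and to metabolism in mammals, had 27.68, 52.23 and 86.45 CPM in exposed fish against 13.62, 24.33 and 34.72 CPM in controls. All 10 exposed fish lay above the control median (1.12 ± 0.26, p = 0.000125). Its named copies LOC106567189 and LOC106607663 were at 0.18 (p = 0.14) and 0.27 (p = 0.0727). In the family, 1 of 37 Krueppel-like factor genes was higher and 1 lower (2.7% each), and the median was 0.04. Among all genes 3.55% were higher and 4.46% lower. The summed level of the family was 155 to 233.2 CPM in exposed fish and 140.1 to 189.5 CPM in controls, a sum that includes LOC100194692 itself, with 55.05 CPM on average in exposed fish and 25.4 CPM in controls.

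The GSK-3-binding protein gbp, an inhibitor of the kinase GSK-3 and an activator of Wnt signalling in frogs, was the single higher DESeq2 call among the 1520 genes with an adjusted p. It had 32.23, 48.03 and 68.89 CPM in exposed fish against 9.067, 21.14 and 48.7 CPM in controls (1.03 ± 0.26, p = 0.000331, DESeq2 adjusted p = 0.0186), and 0.65 in fish of 35 to 52 g. Its copy LOC106605477 was at 0.79 (p = 0.00216). Nuclear transcription factor Y subunit alpha-like LOC106566364, part of the complex that binds the CCAAT box, had the smallest p of the higher genes at a modest size: it averaged 10.5 ± 1.02 CPM in exposed fish and 8.23 ± 0.8 CPM in controls (0.35 ± 0.08, p = 6.2e-05). Acid sphingomyelinase-like phosphodiesterase 3a (LOC106571371), a nucleotide phosphodiesterase in mammals, had 5.413, 6.346 and 8.008 CPM in exposed fish against 3.072, 4.211 and 6.606 CPM in controls (0.54 ± 0.13, p = 0.000145). LOC106569900, a member of the acidic nuclear phosphoprotein 32 family of histone chaperones, was at 0.65 ± 0.16 (p = 0.000171). Its copies LOC106574283, LOC106588334 and LOC106592767 were at -0.37 (p = 0.0836), 0.10 (p = 0.397) and -0.13 (p = 0.431).

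Further genes on the higher side included rhoq_1, a small GTPase linked to insulin-stimulated glucose uptake in mammals, with 1.529, 3.734 and 6.871 CPM in exposed fish against 0.776, 1.391 and 3.443 CPM in controls (1.21 ± 0.32, p = 0.000457). The co-chaperone dnaJ homolog B1-like LOC106564265 was at 0.87 ± 0.23 (p = 0.000599), and its relatives LOC106591679 and dnjb1, which have similar names, at 0.82 ± 0.25 (p = 0.00222) and 0.36 ± 0.12 (p = 0.0043). Of the cytosolic chaperones as a list, 7 of 86 were higher (8.14%, against 3.55% of all genes) and 2 lower (2.33%, against 4.46%), with a median of 0.04. Low-density lipoprotein receptor-related protein 11-like LOC106607748 was at 0.93 ± 0.24 (p = 0.000376) and the Y-box-binding protein LOC106608671, of a family that packages messenger RNA, at 0.72 ± 0.19 (p = 0.000472). The Y-box copy ybx2a went the other way, at -0.28 (p = 0.15), with 109.9 CPM on average in exposed fish and 133.1 CPM in controls. Protease prs23, the adaptor GIPC1-like LOC106569591, the ubiquitin ligase subunit anapc5, collagen IX-like LOC106566732 and the protocadherin LOC106608544 were at 0.48, 0.63, 0.39, 0.56 and 2.00, with p between 0.000224 and 0.00089. Of 7 other prs23 entries tested, LOC106604707 was at -0.72 (p = 0.00716) and LOC106611762, under 1 CPM on average in each group, at 0.91 (p = 0.00458). The GIPC1-like copies LOC106601663 and LOC106606841 were at -0.15 (p = 0.254) and -0.06 (p = 0.797), and anapc5_1 was at 0.31 (p = 0.0213). The protocadherin was at 0.91 in fish of 35 to 52 g (p = 0.169). All 15 genes of this group had the same sign under total reads and in fish of 35 to 52 g. Total reads put the median of all genes at 0.19, so that scale could hardly turn a higher gene negative. The fish of 35 to 52 g are a part of the fish that chose these genes. Neither count is therefore a separate check of direction. In the leave-out of 1 fish that gave the weakest difference, each was at p under 0.05 (largest of these p = 0.00792). Every exposed fish lay above the control median in 11 of the 15. The 15 were chosen by their p in these same fish, so these counts follow in part from the choice. The matching share over all genes was not counted.

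Of the lower genes at modest levels, XIAP-like LOC106612162, an inhibitor of caspases, had 8.699, 10.47 and 14.23 CPM in exposed fish against 13.18, 14.35 and 19.14 CPM in controls (-0.45 ± 0.09, p = 7.7e-06, edgeR adjusted p = 0.117). It was the gene that passed when exposed fish 2 was left out (adjusted p = 0.0246), and its copy LOC106604301 was at -0.25 (p = 0.0588). The groups did not overlap for 1 gene in 30397 (0.00329%), the uncharacterized LOC106561290, with 3.41 to 5.54 CPM in exposed fish and 5.86 to 7.56 CPM in controls (-0.47 ± 0.09, p = 5.18e-06, edgeR adjusted p = 0.117). The wolframin-like gene LOC106611899, a protein of the endoplasmic reticulum membrane, had 0.9438, 1.606 and 3.43 CPM in exposed fish against 1.197, 3.472 and 11.11 CPM in controls (-1.31 ± 0.32, p = 0.000176). The glucose-6-phosphate antiporter slc37a1 was at -0.45 ± 0.11 (p = 0.000232), the small GTPase ralB-like LOC106575191 at -0.36 ± 0.09 (p = 0.000319) and cytosolic NADP isocitrate dehydrogenase LOC106586335, a source of NADPH, at -0.43 ± 0.12 (p = 0.00115). The same-named slc37a2 was at 0.12 (p = 0.534), and the other wolframin-like entry LOC106604863 at -0.41 (p = 0.0773). Filaggrin-2-like LOC106589615 and the trichohyalin-like genes LOC106577032 and LOC106570020 were at -1.21, -0.84 and -0.96. Of the 30 trichohyalin-like entries besides LOC106570020, 23 were negative, 7 lower and 1 higher at p under 0.05. Among all genes 4.46% were lower and 3.55% higher. The 7 include LOC106577032, itself chosen by its p, and entries under 1 CPM such as LOC106599509 (0.34 CPM in exposed fish, 0.77 CPM in controls). In 11 of the 15 named lower genes every exposed fish lay below the control median. In the leave-out of 1 fish that gave the weakest difference, 14 were at p under 0.05, the exception being LOC106592568. These counts too follow in part from choosing the genes by their p in the same fish.

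Markers of some other cell types differed too. Exocrine pancreas was read by 44 digestive enzyme genes, of which 22 passed the filter on low counts. Of these, 9 were higher (40.9%, against 3.55% of all genes), 0 lower, and the median was 1.99. A marker could pass that filter through the fish where it was high, which may raise both the share and the median. They describe these 22 markers only. The summed level of the 22 was 6.19, 47.9 and 238.6 CPM as the lowest, median and highest exposed fish, against 6.10, 10.9 and 130.1 CPM in controls. In 5 exposed fish and 1 control fish it exceeded 50 CPM. Carboxypeptidase A1 (cbpa1) had 0, 1.014 and 10.89 CPM in exposed fish against 0, 0.0274 and 1.804 CPM in controls (3.21 ± 1.16, p = 0.00858). Bile salt-activated lipase (LOC100136561) was at 1.29 ± 0.45 (p = 0.00704). The count of higher markers was 4 without exposed fish 6, 20 without control fish 9 and 1 in fish of 35 to 52 g. With the 6 fish over 50 CPM left out, a choice made after the data were seen, 14 acute phase, 24 complement, 20 coagulation and 8 cholesterol genes were lower, against 17, 26, 16 and 8 with all fish, while ribosomal protein genes went to 41 and proteasome genes to 0 with a median of 0.02.

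Macrophage and neutrophil markers were higher in 3 of 28 members (10.7%, against 3.55% of all genes) and lower in 0. Their median of 0.24 rested on exposed fish 9. Their sum was 255.5 CPM in that fish and 65.9 to 110 CPM in the other exposed fish, against 54.7 to 152.4 CPM in controls, and without it 0 markers were higher. The scavenger receptor MARCO-like LOC106582060 was at 0.95 ± 0.30 (p = 0.00318) with all fish and at 0.30 without exposed fish 9. Stellate cell and endothelium markers were higher in 4 of 39 (10.3%, against 3.55% of all genes) and lower in 2 (5.13%, against 4.46%). Their median was 0.14, and without exposed fish 9, 0 of them were higher. The collagen I gene LOC106570460 had 37.51, 57.2 and 119.6 CPM in exposed fish against 32.08, 40.46 and 76.39 CPM in controls (0.48 ± 0.18, p = 0.0126). Hepatocyte markers were lower in 8 of 29 (27.6%, against 4.46% of all genes) and higher in 0. Several of them are abundant, and among all genes 44% were lower at ranks 1 to 50 and 30.7% at ranks 51 to 200. No share at matched abundance was counted for these markers. Their median was -0.25, and it was -0.07 without the 3 light controls and -0.03 in fish of 35 to 52 g. Erythrocyte and lymphocyte markers had 1 and 0 higher members, of 31 and 12 tested, and 0 lower. Bile duct and gut epithelium markers had 1 higher and 0 lower, of 12 tested.

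The liver clears foreign compounds by oxidation, conjugation and export. Of 70 genes for oxidation, mostly cytochromes P450, 2 were higher and 2 lower at p under 0.05 (2.86% each), and of 70 for conjugation and export 5 were higher (7.14%) and 1 lower (1.43%), against 3.55% higher and 4.46% lower among all genes. Under total reads 14 and 15 of them were higher and 0 lower, where 16.8% of all genes were higher. The receptor that switches on part of them, ahr2d, had 3.51, 4.416 and 6.743 CPM in exposed fish against 2.267, 3.378 and 4.599 CPM in controls, all 10 exposed fish above the control median (0.42 ± 0.12, p = 0.00141). At day 8 it stood at 0.39 (p = 0.00284). A glucuronosyltransferase, LOC106590122, was at 0.57 ± 0.23 (p = 0.0193), while the bile canaliculus pump abcc2 was at -0.39 ± 0.12 (p = 0.00265). Of 27 chitin and hyaluronan genes 1 was higher and 2 lower, with gnpnat1, an enzyme of the amino sugar supply, at -0.64 ± 0.23 (p = 0.00832).

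SUMO conjugation, named in the title of the series, held 66 tested genes, with a median of -0.03. Of these, 0 were higher (against 3.55% of all genes) and 1 lower (1.52%, against 4.46%). The summed level was 420.1, 499.7 and 546.5 CPM in exposed fish against 463.6, 498.9 and 537.5 CPM in controls, and 5 exposed fish lay on each side of the control median. The lower member was a gene for SUMO2, LOC106606606, at -1.76 ± 0.59 (p = 0.00501), with 0.2599, 1.019 and 2.212 CPM in exposed fish against 0.2386, 1.264 and 11.34 CPM in controls. The medians lay close together, so the size of this difference came from high control values. The activating enzyme subunit sae1 was at 0.21 ± 0.11 (p = 0.0516) and the SUMO protease LOC106608956 at -0.45 ± 0.24 (p = 0.0613). At day 8, 4 members had fallen and 0 had risen, with a median of -0.15. Under total reads the day 14 median was 0.15, against 0.19 for all genes.

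Glucose and glycogen genes were higher in 7 of 70 (10%) and lower in 2, with a median of 0.08 (0.26 under total reads), and pyruvate carboxylase LOC106560439, the first step of gluconeogenesis, was at 1.27 ± 0.44 (p = 0.00617). Both insulin receptor substrate 2-like genes of the growth hormone and insulin-like growth factor list were higher: LOC106586664 had 19.96, 28.31 and 49.08 CPM in exposed fish against 10.07, 17.02 and 39.13 CPM in controls (0.62 ± 0.19, p = 0.0024), and LOC106582130 was at 0.93 ± 0.36 (p = 0.0142). The binding protein igfbp-1a1, which rises in fasting fish, was at -1.44 ± 0.56 (p = 0.0143), and -1.06 without control fish 8. Circadian clock genes had 6 lower and 0 higher of 75, with the repressor NR1D2-like LOC106570286 at -0.52 ± 0.17 (p = 0.0031), and -0.54 at day 8. Beside 3.55% higher and 4.46% lower among all genes, the members at p under 0.05 numbered as follows in other lists: interferon response (1 higher and 1 lower of 73), cell cycle (0 and 0 of 39), fatty acid oxidation (1 and 0 of 45), amino acid breakdown (2 and 3 of 70), aminoacyl tRNA ligases (0 and 1 of 32), splicing factors (1 and 7 of 135), autophagy (2 and 4 of 56, 7.14% lower), cytokine signalling (7 and 3 of 105, 6.67% higher) and apoptosis regulators (5 and 5 of 85, 5.88% each way). Oxidative stress defence had 4 higher and 6 lower of 60, with superoxide dismutase sod1 at -0.29 ± 0.12 (p = 0.0228) and all 10 exposed fish below the control median.

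The genes that had moved by day 8 were then followed in the day 14 fish, which are other fish but shared the filter, the scaling and the estimate of the spread with the day 8 fish in the 1 fit. At day 8, 142 genes rose (0.467%) and 352 fell (1.16%) in exposed fish at an adjusted p of 0.05. Of the 142, 77 were positive at day 14 (54.2%, 95% exact binomial interval 45.7% to 62.6%), 9 were higher and 9 lower at p under 0.05, and the median was 0.03 at day 14, against 0.69 at day 8. Of the 352, 144 were negative at day 14 (40.9%, interval 35.7% to 46.2%), 3 were lower and 4 higher, with a median of 0.03 at day 14, against -0.77 at day 8. At p under 0.05, 6.34% of the 142 were higher and 6.34% lower, and 1.14% of the 352 were higher and 0.852% lower. Among all tested genes 3.55% were higher and 4.46% lower at that threshold, and 49.2% were negative. Genes are not independent, so the binomial intervals cover counting error only. The share of negative values among the 352 was 65.3% in fish of 35 to 52 g, 59.4% without the 3 light controls and 11.9% under total reads, and without single fish it ran between 26.1% (exposed fish 2) and 61.4% (exposed fish 4), so its side of 50% is not settled. Under total reads the median of all genes was itself 0.19.

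**Figure D5:**
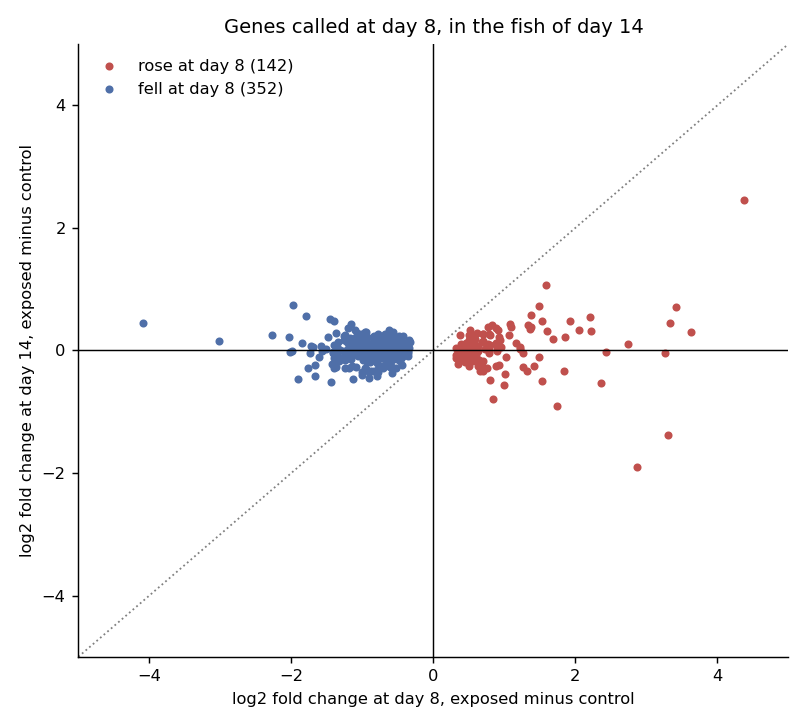
Log2 difference between exposed and control fish at day 14 against that at day 8 for the 142 genes that rose and the 352 that fell at day 8, with a dotted line where both are equal. The points lie along 0 at day 14, with medians of 0.03 in both sets.

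Of the 142 and 352 genes together, those at p under 0.05 at day 14 were thus split between the day 8 direction (9 and 3) and the opposite one (9 and 4). Among the 5 named genes of each set with the smallest day 14 p, 2 of those that had risen and 2 of those that had fallen had the day 8 sign, and hdac6, LOC106572926, LOC106601318, bcl7b, coasy and LOC106571191 the opposite one. The type II deiodinase-like gene LOC106611368, whose product makes active thyroid hormone, averaged 10.3 ± 6.29 CPM in exposed fish and 4.92 ± 3.31 CPM in controls at day 14 (1.07 ± 0.38, p = 0.0083), with each exposed fish above the control median, and 125 ± 62.7 CPM against 41.7 ± 23.9 CPM at day 8 (1.58 ± 0.38, adjusted p = 0.0267). Its day 14 difference was 0.80 without the 3 light controls (p = 0.0674), 0.80 in fish of 35 to 52 g (p = 0.0954) and 0.83 without the fish over 50 CPM of pancreas markers (p = 0.081). The other tested entry of that name, LOC106603085, was at -0.06 at day 14 (p = 0.92), with 1.84 CPM on average in exposed fish and 1.91 CPM in controls. The insulin receptor adaptor GRB14-like LOC106581801 was at 0.34 ± 0.13 at day 14 (p = 0.0115), at 0.24 without exposed fish 2 (p = 0.0559), at 0.26 in fish of 35 to 52 g (p = 0.119) and at 0.23 without the fish over 50 CPM of pancreas markers (p = 0.134). The autophagy protein ATG12 (LOC106605822) was at -0.37 ± 0.12 (p = 0.00424), with each exposed fish below the control median. The rho GTPase-activating protein 10-like gene LOC106610191 was at -0.29 ± 0.13 (p = 0.0307).

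The test of the difference between days passed 15 genes (0.0493%), 8 positive and 7 negative, of which 13 had passed at day 8 and 9 were at p under 0.05 at day 14. Histone deacetylase 6 (hdac6), a cytoplasmic deacetylase of tubulin, averaged 2.42 ± 0.873 CPM in exposed fish and 4.23 ± 2.14 CPM in controls at day 14 (-0.80 ± 0.22, p = 0.00063), and 5.26 ± 1.17 CPM against 2.94 ± 0.994 CPM at day 8 (0.84 ± 0.22, adjusted p = 0.0348; difference -1.64 ± 0.31, adjusted p = 0.0394). Its relative LOC106572926 went with it, at -0.56 at day 14 (p = 0.0115) and 0.99 at day 8. Krueppel-like factor 11 was at 1.12 at day 14 and -0.69 at day 8 (difference 1.80 ± 0.37, adjusted p = 0.0478). The ribosomal RNA processing factor RRP5 homolog LOC106588633 was at 0.42 at day 14 (p = 0.0354) and -1.16 at day 8. Midasin-like LOC106571345, an ATPase of large subunit assembly, was at 0.49 at day 14 (p = 0.0553) and -1.40 at day 8. The biogenesis factor urb2 and the RNA polymerase I subunit polr1a fell at day 8, at -1.85 and -1.10, and stood at 0.11 (p = 0.676) and 0.20 (p = 0.285) at day 14, within the spread between fish. The number of genes that passed this test depended on single fish: it was 0 when any of control fish 2, 3, 4 and 5 or exposed fish 4 and 7 was left out, and 48 and 74 without control fish 9 and exposed fish 2. In fish of 35 to 52 g it was 0.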

How the data were processed

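Liver RNA was purified with poly-T beads and made into libraries with NEBNext reagents, with an RNA integrity number of 9.5 ± 0.2 over the 40 livers, per the labels' protocols. A single table of raw counts over 79140 gene entries, not normalized, was deposited by the authors. HISAT2, Cufflinks, HTSeq and DESeq2 are listed in the submitters' processing notes, with neither version nor role. Genome build, annotation and strand setting: not given in the sources used here. Copies, overlapping genes and antisense partners may therefore share reads.

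Gene names are those of the deposited file. Genes were kept by edgeR's filterByExpr (minimum count 10, minimum total 15), which left 30397 genes with 99.9% of counts. The counts were scaled with TMM and fitted in edgeR 4.0.16 (robust quasi-likelihood, 1 mean per group, all 40 fish; limma 3.58.1, R 4.3.3, the data.table package, version 1.17.8), with Benjamini-Hochberg adjustment at 0.05. The fit was tested on simulated data. CPM uses TMM-scaled library sizes and is not corrected for length, so levels of different genes are not compared. Standard errors came from the F statistic. Library measures were compared by permutation tests with 100000 resamples (SciPy 1.17.1), and figures drawn with matplotlib 3.10.9. In 190 pairs of day 14 libraries the smallest chi-square per gene was 63 over 22119 genes, so no pair was within counting noise and no library was treated as a repeat of another.

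The comparison, the 37 gene lists and the rules were chosen with earlier results of these data known. Named genes have a full name, at least 1 CPM on average at day 14 and are among the 15 smallest p in each direction. Added to these are DESeq2 calls, genes whose groups do not overlap, same-named copies, up to 3 members per list and up to 5 genes per direction of the day 8 calls and of the difference between days. The alternatives were RLE size factors, total reads, no filter, DESeq2 1.42.0, the 20 day 14 fish alone, replicate number as a block, body weight as a covariate, 2 subsets by weight and each fish left out. Leaving out fish over 50 CPM of pancreas markers, and their log2 sum as a covariate, were chosen after seeing the data.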

Additional observations from a re-analysis of the deposited data

Results flagged for a closer look

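Single fish stood apart from the other 9 of their group in 7 of the 140 sets of 10 fish looked at (Dixon's test at the 95% level, by which chance flags about 1 in 20). Exposed fish 9 had 8.357 CPM of anthrax toxin receptor 1-like LOC106589351, against 2.018 to 3.763 CPM in the other exposed fish. The same fish had 255.5 CPM of macrophage and neutrophil markers, against 65.89 to 110 CPM, and 30.12 CPM of lymphocyte markers, against 15.02 to 20.19 CPM. Exposed fish 2 had 766.5 CPM of apoptosis regulators, against 586 to 648.6 CPM, and 1571 CPM of growth hormone and IGF axis genes, against 780.8 to 1105 CPM. Control fish 2 had 19.14 CPM of XIAP-like LOC106612162, against 13.18 to 15.45 CPM in the other controls, which lies away from the exposed fish. Control fish 3 had 133 CPM of the ribosomal protein gene LOC106592568, against 3.686 to 5.784 CPM.

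The effect of exposure differed between the days (day 14 minus day 8, edgeR's test of the difference) for 15 genes. The difference was positive for LOC106588633 (RRP5 homolog) at 1.585, LOC106571345 (midasin-like) at 1.89, urb2 at 1.963, polr1a at 1.302, LOC100194692 (Krueppel-like factor 11) at 1.802, bcl7b at 0.9521, LOC106571191 (zinc finger protein 106-like) at 0.869 and ccr9 at 5.534. It was negative for hdac6 at -1.641, its relative LOC106572926 at -1.55, the ski-like gene LOC106600502 at -1.534, the magnesium transporter s41a2 at -0.6321, LOC106594288 (receptor expression-enhancing protein 3-like) at -0.5561, LOC106601318 (ankyrin repeat domain-containing protein 54-like) at -4.77 and LOC106569568 (rho GTPase-activating protein 12-like) at -1.167. Adjusted p-values lay between 0.0394 and 0.0478, and the dependence of this set on single fish is given with the comparison above.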

How the results depend on the processing

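Weights of control fish 7 and 10 look low for their lengths, tanks are unknown, and genes far under 1 CPM (at least 42.7 reads) carry more counting error. No gene passed in edgeR under any planned or added setting, except LOC106612162 without exposed fish 2 (0 to 1 over single fish left out), while DESeq2 passed 20. At an unadjusted p under 0.05, the higher genes numbered 5118 under total reads, 2358 with no filter, 718 in fish of 35 to 52 g and 785 to 1443 without single fish. The lower genes numbered 231, 829 in fish of 35 to 52 g and 862 to 1690 without single fish, and both lowest counts came without control fish 2. With the day 14 fish alone in the fit, 928 of 28489 genes were higher (3.26%) and 1050 lower (3.69%). The difference between days passed 422 genes under total reads, 3 with no filter, 4 with body weight as a covariate, 5 without the 3 light controls, 0 in fish of 35 to 52 g, 109 without fish over 50 CPM of pancreas markers, 1 with those markers as a covariate, 133 in DESeq2 and 0 to 74 without single fish. With replicate number as a block it passed 8 genes, and day 14 passed 0. Same-numbered fish were correlated at -0.31 to 0.163, 1 of 10 pairs over 0.1, and 0 exposed fish correlated best with their own number, so numbers were not taken to pair fish. Of the genes that rose at day 8, 81.7% were positive at day 14 under total reads, where the median of all genes was itself 0.19. Without single fish the share was 47.9% to 57.8%. Of those that fell, 11.9% were negative under total reads, 50.3% with body weight as a covariate, 59.4% without the light controls, 65.3% in fish of 35 to 52 g, 19.0% without fish over 50 CPM of pancreas markers and 26.1% to 61.4% without single fish. Under total reads the list medians moved to 0.15 for SUMO, 0.025 for coagulation, 0.26 for glucose, -0.0445 for hepatocyte markers, -0.014 for immediate early genes, 0.15 for oxidative defence and 0.32 for stellate markers, against 0.19 for all genes. Hepatocyte markers were at -0.072 without the light controls and -0.031 in fish of 35 to 52 g, and pancreas markers at 0.29 without the fish over 50 CPM and -0.66 with the covariate. Without single fish the medians ran between -0.44 and -0.18 for ER folding, -0.04 and -0.01 for SUMO, -0.39 and -0.21 for acute phase proteins, -0.44 and -0.26 for cholesterol, -0.22 and -0.10 for coagulation, -0.27 and -0.14 for complement, -0.23 and -0.17 for ribosomal proteins, 1.62 and 3.13 for pancreas, 0.02 and 0.10 for glucose, -0.28 and -0.12 for hepatocyte, -0.28 and -0.13 for immediate early, -0.06 and 0.40 for macrophage, -0.07 and 0.00 for oxidative defence, -0.00 and 0.12 for ribosome biogenesis and 0.06 and 0.16 for stellate markers. Of the named genes, urb2 turned to -0.0039 in fish of 35 to 52 g and LOC106594288 to 0.054 under total reads. The causes were not tested.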
